A study of Mus musculus with 10 samples.

Results

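The Sez6 family holds 3 mouse genes, Sez6, Sez6l and Sez6l2, and was looked up on 10 dual dye arrays of hemibrain RNA. Its members were taken through the RefSeq accession that the array files give for each probe, and the gene names in those files were not used. The family was selected on a measured value, the wide spread of the Sez6l ratio between arrays in an earlier look at these data. The spread of Sez6l is therefore given as a description, with no test. Of 41174 probes, 27198 (66.1%) matched a gene of the name table, giving 18539 genes. These include 2 of the 3 members, with 3 probes: A_52_P393607 for Sez6 and A_51_P201747 and A_52_P427377 for Sez6l. No probe's accession matched Sez6l2, so Sez6l2 is not analysed here. Whether the unnamed probes include one for Sez6l2 was not checked.

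SEZ6 proteins are transmembrane proteins of neurons whose outer part is built of CUB and sushi domains, the modules also found in regulators of complement. Sez6 (seizure related gene 6) was named for its response to a convulsant drug in cultured cortical neurons, and its protein acts in dendrite branching and at excitatory synapses. BACE1, the beta-secretase that also cuts the amyloid precursor protein, sheds the outer parts of SEZ6 and SEZ6L from the neuron.

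Each array was hybridized with RNA of the left hemibrain of a male C57BL/6J mouse, labeled with Cy-5, while the second dye, Cy-3, carried another RNA. The mice were 3 weeks old at arrival, were housed singly on FD (fish oil enriched diet, rich in n-3 PUFA) or SD (standard lab diet) for 20 weeks, and were 5 months old when the tissue was taken. In the labels, the diet of all 10 Cy-5 samples is FD but their descriptions read as controls, and the paper names both diets, so the diet of each array was not settled and FD was not compared with SD. The paper's methods also count fewer mice on arrays than the 10 here. For the Cy-3 RNA, the sample labels name pooled hemibrains of SD-fed C57BL/6J mice, whereas their labeling protocol and the paper's methods name a commercial reference RNA. Values are given for each animal or as range and median, without a mean or test over the arrays of a diet. A hemibrain is a bulk sample, in which fewer cells of a type and less RNA per cell cannot be told apart.

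The arrays came from 4 slides. The first slide held C10-415, C10-416, C10-417 and C10-423, and the second held C10-424, C10-425, C10-434 and C10-435, whereas C10-413 and C10-437 each stood alone. A probe counts here as detected in a dye where the software flags it as well above background, as 49.8% of probes were in Cy-5 on C10-434 and 68.2% to 76.9% on the others. Most listed markers of brain tissue were higher in Cy-5 than in Cy-3. Of 10 pan-neuronal markers, 8 had a log2 Cy-5/Cy-3 above 0 on all 10 arrays, as had 7 of 7 astrocyte and 7 of 7 oligodendrocyte markers, against 31.3% of 17659 genes. Their list medians over the arrays were 4.86, 6.62 and 5.22. Syn1, a pan-neuronal marker, went the other way with a median of -0.27. Of 6 microglia markers, 4 lay above 0 on all arrays, with a list median of 0.96. All 6 proliferation markers lay below 0 on all arrays (33.9% of genes did), with a list median of -6.42, and 3 of them were detected in Cy-5 on every array. These values go against the label of the Cy-3 RNA as pooled hemibrain, so the Cy-3 RNA is called the comparison RNA here.

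Sequence was at hand for Sez6l alone, the gene that gave the family its place here. Its 250 bases before the RefSeq transcription start lie at chr5:112577199-112577448 on the minus strand of GRCm38.p6, and the capitals mark CG dinucleotides, the sites of DNA methylation, which was not measured.

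Sez6l upstream: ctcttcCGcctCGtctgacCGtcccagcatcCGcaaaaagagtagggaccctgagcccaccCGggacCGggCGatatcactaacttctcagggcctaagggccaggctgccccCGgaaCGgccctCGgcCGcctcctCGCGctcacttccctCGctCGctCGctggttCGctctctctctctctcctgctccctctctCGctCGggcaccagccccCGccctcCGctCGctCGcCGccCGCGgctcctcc

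The window holds 26 CG dinucleotides, more than 90.4% of 32851 promoters of the same length in the RefSeq table, whose median was 6, and 92.1% of them hold at least 1. Its GC content was 69.6%, higher than in 90.2% of promoters. The letters GGGCGG or CCGCCC, the GC box on either strand, occur 2 times, and 32.7% of promoters hold at least 1 such match. Each GC box holds a CG, so the searches overlap, and a match of letters is not a binding site.

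Sez6 was higher in the hemibrain than in the comparison RNA on every array. Its probe was detected in both dyes on 10 of 10 arrays. The processed Cy-5 signal was lowest on C10-434, at 2911, had a median of 7049 and was highest on C10-413, at 14827. The processed Cy-3 signal lay between 183 on C10-434 and 1321 on C10-413, with a median of 647. These are intensities with no common scale across arrays, which is why the ratio within an array is used.

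The log2 Cy-5/Cy-3 of Sez6 was 3.76 on C10-415, 3.87 on C10-416, 3.83 on C10-417 and 3.43 on C10-423. It was 3.37 on C10-424, 3.28 on C10-425, 3.99 on C10-434 and 3.10 on C10-435. On the arrays that stood alone it was 3.49 for C10-413 and 3.11 for C10-437. The median of 3.46 lay between these close values, and the range was 0.89, from 8.57-fold to 15.9-fold over the comparison RNA. No array stood apart by a gap test (Dixon's, at the 95% level for 10 values). The highest ratio belonged to C10-434, the array that was dim in Cy-5, and without it the range was 0.77 and the median 3.43. The Feature Extraction software attaches an error to each ratio, which on the log2 scale was 0.35 to 0.43 for Sez6, and the difference between the highest and the lowest array was 1.60 times their combined error of 0.56.

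Sez6l was also higher in the hemibrain on every array, by both of its probes. For A_51_P201747, the brighter one, the log2 Cy-5/Cy-3 was 4.66 on C10-415, 6.33 on C10-416, 4.70 on C10-417 and 3.68 on C10-423. On the second slide it was 4.11 on C10-424, 4.00 on C10-425, 4.08 on C10-434 and 3.15 on C10-435. It was 5.65 on C10-413 and 4.59 on C10-437. The highest array was thus C10-416, followed by C10-413, and the lowest was C10-435. The median was 4.35 and the range 3.18, a 9.05-fold difference between the extreme arrays, which is the spread that drew attention to the family. The order of the arrays depended on the processing. C10-413 was the lowest array of this probe with normexp, at 0.21, and the highest after subtraction with a floor, at 4.18.

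The other Sez6l probe, A_52_P427377, varied far less. Its log2 Cy-5/Cy-3 was 2.96 on C10-415, 2.79 on C10-416, 2.61 on C10-417 and 2.11 on C10-423. On the second slide it was 2.28 on C10-424, 2.03 on C10-425, 2.34 on C10-434 and 2.07 on C10-435. It was 2.72 on C10-413 and 2.43 on C10-437. Its median was 2.39 and its range 0.93, or 1.91-fold. C10-415, C10-416 and C10-413 were the highest arrays of this probe and C10-425 the lowest, so the arrays at the top were partly those of A_51_P201747, with a smaller spread.

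**Figure D1:**
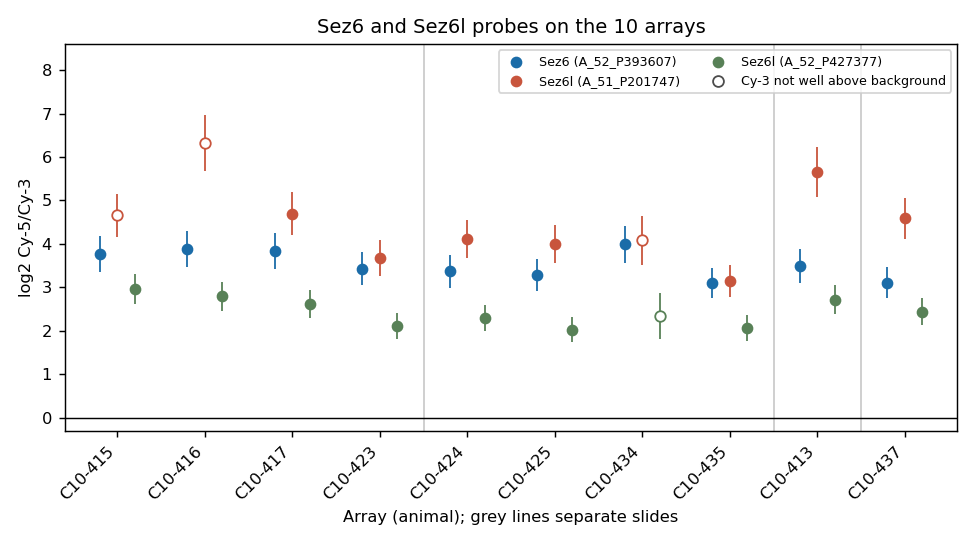
Log2 Cy-5/Cy-3 (vertical axis) of the Sez6 probe and both Sez6l probes on each of the 10 arrays (horizontal axis), with the first slide on the left, the second in the middle and the 2 arrays that stood alone on the right. Bars are the error the software gives for each ratio and open circles are spots not detected in Cy-3: the red Sez6l probe runs from 3.15 to 6.33, whereas Sez6 stays between 3.10 and 3.99 and the green Sez6l probe between 2.03 and 2.96.

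The difference between the probes lay in the comparison channel as well as in the hemibrain channel. A_51_P201747 was detected in Cy-5 on 10 of 10 arrays but in Cy-3 on 7, with C10-415, C10-416 and C10-434 as the exceptions. Its processed Cy-3 signal was 26.2 on C10-416 and 25.9 on C10-434, against a highest value of 105 on C10-437. On C10-416, which gave the highest ratio, the ratio therefore rests on an undetected Cy-3 signal. Against the dimmest Cy-3 spot that was detected on that array, at 33.7, the Cy-5 signal was 62.5-fold higher, or 5.96 on the log2 scale. On C10-434 the value found in the same way was 6.65-fold. On C10-415 the probe's own undetected Cy-3 signal, 41.2, was above the dimmest detected spot, at 36.2, and the measured ratio was 25.2-fold. The dimmest detected spot is thus not a detection limit for the probe, and these folds are not minimum values. With normexp the log2 ratio on C10-416 was 3.25. On the 7 arrays where both dyes detected it, the range was 2.50, from C10-435 to C10-413. A_52_P427377 was detected in Cy-3 on 9 arrays, all but C10-434, where its Cy-5 signal was 3.93-fold above the dimmest detected Cy-3 spot.

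The software errors were larger for A_51_P201747, from 0.36 on C10-435 to 0.64 on C10-416, with a median of 0.49. The difference between its extreme arrays was 4.30 times their combined error of 0.74, with the ratio on C10-416 taken at its measured value. For A_52_P427377 it was 2.04 times the combined error of 0.46. As Sez6l was chosen for its spread and the extreme arrays were picked, these multiples are descriptions and not tests. These errors describe a single spot on a single array and do not hold the spread between animals or hybridizations.

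When each dye was set against the 75th percentile of its own array, the Cy-5 level of A_51_P201747 ranged over 2.13 on the log2 scale, from -1.70 on C10-423 to 0.42 on C10-413. The Cy-3 level ranged over 2.11, from -6.56 on C10-416 to -4.45 on C10-435. Without C10-416, where the probe was not detected in Cy-3, the Cy-3 range was 1.30. Between the extreme arrays of the ratio, C10-416 and C10-435, the Cy-5 level differed by 1.07 and the Cy-3 level by -2.11. The median range in Cy-5 was 0.94 among the 19259 probes detected in Cy-5 on all 10 arrays. In Cy-3 it was 0.24 among the 17612 probes detected in both dyes on all 10 arrays. That set leaves out both Sez6l probes, which were not detected in Cy-3 on every array. Among 653 probes with a median ratio within 0.5 of that of A_51_P201747, the median Cy-3 range was 1.29, and 81.5% had a smaller one. For A_52_P427377 the range was 1.41 in Cy-5 and 0.84 in Cy-3. For Sez6 it was 1.13 in Cy-5 and 1.56 in Cy-3, the lowest Cy-3 level being that of C10-434. C10-413 had the highest Cy-5 level for all 3 probes, and C10-423 the lowest. Beside this, the list medians of log2 Cy-5/Cy-3 on C10-423 were 4.63 for 10 pan-neuronal markers, 4.18 for 8 cortex and hippocampus markers, 4.76 for 8 striatum markers and 4.42 for 8 cerebellum markers. Over all arrays they ran from 4.63 to 5.39, 4.18 to 5.11, 4.68 to 5.71 and 1.39 to 4.42. The array farthest from the others was C10-434, at the high end of the first 3 lists and the low end of the cerebellum list, of which 4 markers were detected in Cy-5 on every array. The part of tissue makeup in the levels of Sez6 and Sez6l was not tested.

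**Figure D2:**
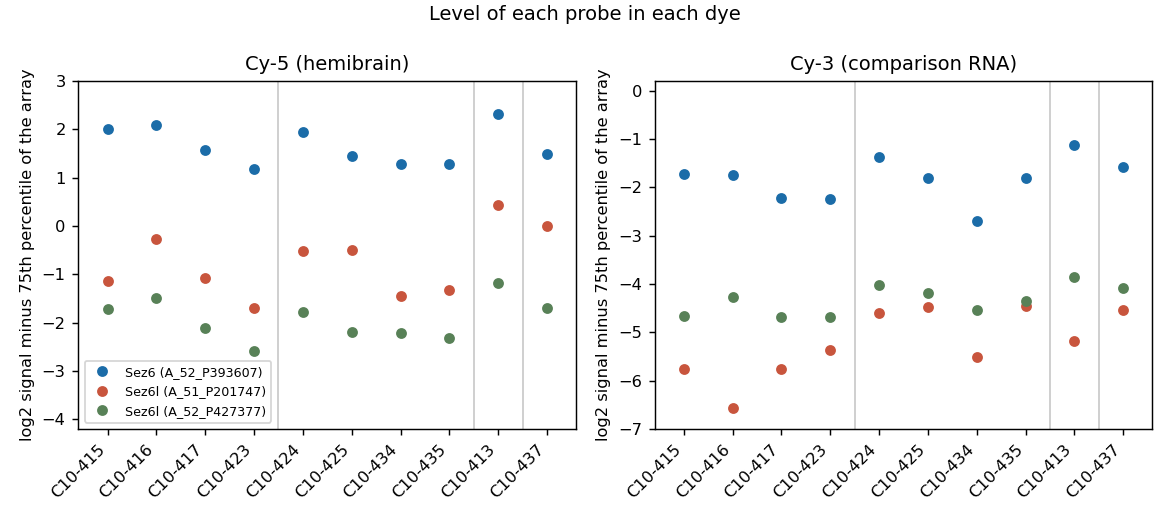
Log2 processed signal of each probe minus the 75th percentile of the same array (vertical axes) in Cy-5 on the left and Cy-3 on the right, for the 10 arrays (horizontal axis), with slides separated by grey lines. The Cy-5 points of the 3 probes are highest on C10-413 and lowest on C10-423, and the red Sez6l probe drops to -6.56 in Cy-3 on C10-416; heights of different probes are not comparable with each other.

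Against all probes detected in Cy-5, the spread of Sez6 and of the second Sez6l probe was near the middle. The median range of log2 Cy-5/Cy-3 was 0.87 among the 19259 probes that passed detection in Cy-5 on each of the 10 arrays. A smaller range than that of Sez6 was found for 51.9% of these probes, and for 55.8% in the case of A_52_P427377. For A_51_P201747 the share was 99.2%, which is the value that chose the family. Ranges were wider where Cy-3 was dim. Among the 500 probes closest to A_51_P201747 in mean Cy-3 signal the median range was 1.54, and 98.6% had a smaller range than this probe. That share uses the same selected spread and is a description. For the 500 probes closest to A_52_P427377 the median range was 1.28, and 21.8% had a smaller range than it. For the 500 closest to Sez6 these values were 0.93 and 47.6%. The part of Cy-3 signal in the spread of these probes was not tested.

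**Figure D3:**
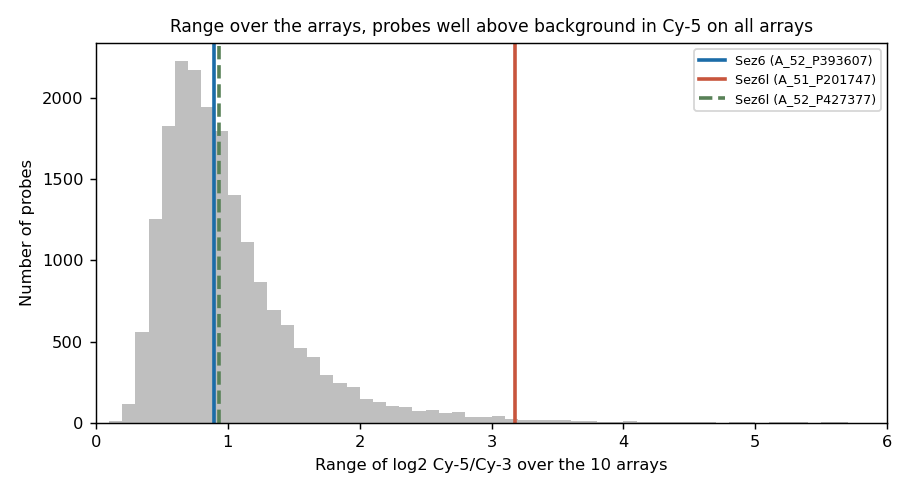
Number of probes (vertical axis) by the range of log2 Cy-5/Cy-3 over the 10 arrays (horizontal axis), for the 19259 probes detected in Cy-5 on all arrays, with the family's probes as vertical lines. Sez6 at 0.89 and the second Sez6l probe at 0.93 sit near the median of 0.87, and the other Sez6l probe lies far to the right at 3.18.

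The ratios of the probes were ordered in the same way wherever both dyes detected them, in the deposited processing. With normexp background correction (1.97 and 3.05) and after subtraction with a floor (2.43 and 3.28), the median of A_51_P201747 lay below that of Sez6. On 7 arrays A_51_P201747 of Sez6l lay above Sez6, by 0.049 on C10-435 to 2.16 on C10-413, with a median difference of 0.75. This difference was smaller than the software errors on C10-423 and C10-435, so on these arrays the neighbours were not separated. On 9 arrays Sez6 lay above A_52_P427377 of Sez6l, by 0.67 to 1.31. On 7 arrays A_51_P201747 exceeded A_52_P427377, by 1.08 on C10-435 to 2.93 on C10-413, which was more than the software errors of these ratios. Neither the probes' positions in the transcript nor the isoforms they detect were available here. Across all probes detected in Cy-5, 84.6% had a lower median ratio than A_52_P427377, 90.1% lower than Sez6 and 93.6% lower than A_51_P201747. The share of probes above 0 on all arrays was 41.1% in that set.

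**Figure D4:**
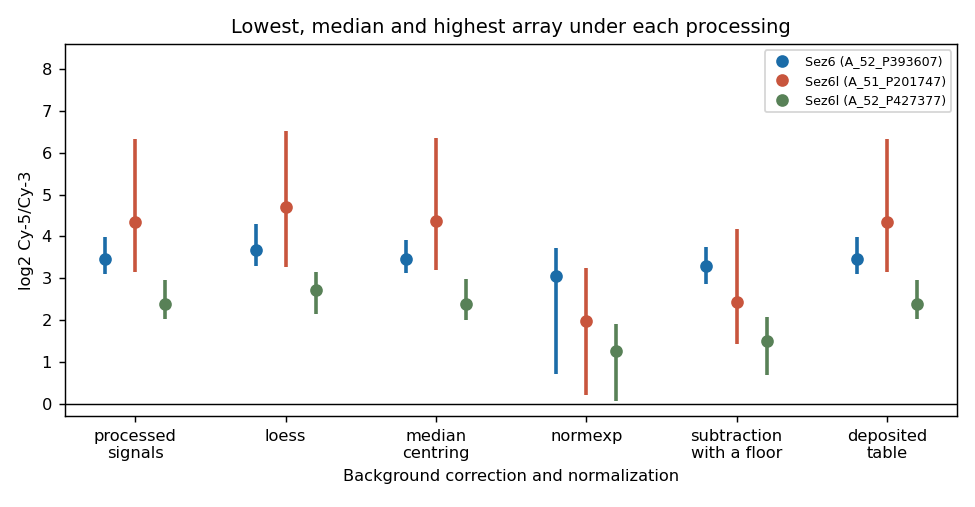
Log2 Cy-5/Cy-3 (vertical axis) of the family's probes as lowest, median (circle) and highest of the 10 arrays under each background correction and normalization (horizontal axis). All bars stay above 0, though that of A_52_P427377 reaches down to 0.055 with normexp. The wide red bar of Sez6l shifts down to a median of 1.97 with normexp and 2.43 after subtraction with a floor.

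Over the 10 arrays the ratios of both Sez6l probes varied together, with a Pearson r of 0.79 and a Spearman rho of 0.88. Without C10-434 the values were 0.79 and 0.85, and r was 0.80 without the 2 arrays farthest from the median. Sez6 followed A_52_P427377 with r = 0.59 and rho = 0.61, and A_51_P201747 with r = 0.48 and rho = 0.56. Without C10-434, r was 0.75 and 0.66, and without the 2 farthest arrays 0.71 and 0.49. In Cy-5 alone, relative to the 75th percentile, r was 0.91 between Sez6 and A_52_P427377, 0.86 between both Sez6l probes and 0.69 between Sez6 and A_51_P201747. Without the 2 farthest arrays these were 0.81, 0.67 and 0.40, the last falling most. For Sez6 and A_51_P201747 in Cy-5, rho over the 10 arrays was 0.72. The ratios of A_51_P201747 include 3 arrays without detection in Cy-3. These correlations are descriptions over arrays that share slides, scaling and dimness, and slides of 4 arrays hold too few for a value within each.

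Within a probe, the dyes also varied together for Sez6. The Cy-5 and Cy-3 levels of Sez6 gave r = 0.71 and rho = 0.72 over the 10 arrays, and those of A_52_P427377 r = 0.66 and rho = 0.58. Without the 2 farthest arrays r was 0.60 for Sez6 and 0.30 for A_52_P427377. For A_51_P201747 r was 0.12. The median over the 19259 probes detected in Cy-5 on all 10 arrays was 0.42. The Cy-3 range of Sez6, at 1.56, was wider than in 75.5% of the 817 probes whose median ratio lay within 0.5 of its own, where the median Cy-3 range was 0.91.

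A limma fit set the second slide against the first, with 4 arrays on each. Of 40299 probes, 30 differed at an adjusted p under 0.05 (Benjamini-Hochberg), which is 0.0744% of those tested, 14 of them (0.0347%) higher and 16 (0.0397%) lower on the second slide. With loess the split was 10 higher and 20 lower. Among the 19482 probes detected in Cy-5 on all 8 arrays, 68 (0.349%) differed, 13 higher and 55 lower. The count was 0 with normexp, 1 after subtraction with a floor and 0 on leaving out any of 6 of the 8 arrays, and it was 2 without C10-415 and 18 without C10-423. Slide, animal and the unsettled diet cannot be told apart in this comparison. Sez6 did not pass. Its mean log2 Cy-5/Cy-3 was 3.72 on the first slide and 3.44 on the second, a difference of -0.29 (SE 0.22, 95% interval -0.79 to 0.21, adjusted p = 0.811 from limma). The slides overlapped, with 3.43 to 3.87 on the first and 3.10 to 3.99 on the second. The interval leaves room for a difference of up to 0.79 in favour of the first slide. Without C10-434 the difference was -0.47, again with no call, at an adjusted p of 0.379 from limma.

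Sez6l is described without a test. A_51_P201747 had a mean of 4.84 on the first slide and 3.83 on the second, with 3.68 to 6.33 against 3.15 to 4.11, so that the slides overlapped through C10-423. Without C10-416 the means differed by -0.51, second slide minus first, and with normexp by -0.025. A_52_P427377 had a mean of 2.62 on the first slide and 2.18 on the second, with 2.11 to 2.96 against 2.03 to 2.34. C10-423, which had the lowest Cy-5 level of Sez6 and Sez6l, was the array of the first slide that overlapped with the second in both probes.

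Genes of the same domain class were high in the hemibrain too. Csmd1, Csmd3, Neto1 and Neto2 encode other neuronal proteins with CUB domains, the Csmd proteins with sushi domains as well, and all 4 measured genes had a log2 Cy-5/Cy-3 above 0 on all arrays (31.3% of genes did). No probe's accession matched Csmd2. Each gene is represented by its brightest probe. Neto1, an auxiliary subunit of glutamate receptors, ranged from 5.49 to 6.72, and its relative Neto2 from 3.05 to 4.52. Csmd3 ranged from 2.94 to 4.68. Csmd1 had the widest range of the list, from 0.22 on C10-434 to 2.49, but its ratio is one of dim signals, with detection in Cy-5 on 3 arrays and 0 detections in Cy-3.

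Bace1, the protease that sheds SEZ6 and SEZ6L, was modestly higher in the hemibrain, from 0.62 to 1.00 with a median of 0.76. Its range of 0.38 was the narrowest but one among the 11 genes of the proteases and other known BACE1 substrates. Of these genes, 8 lay above 0 on all arrays (31.3% of all genes did) and 1 below (33.9%). Chl1, a neural cell adhesion molecule shed by BACE1, stood highest at a median of 9.35, and was detected in Cy-3 on 5 arrays. Nrg1, neuregulin 1, was lowest at -2.48, below 0 on all 10 arrays. L1cam, another adhesion molecule, had the widest range, from 0.92 on C10-434 to 3.85, which was 2.31 without C10-434, when Chl1 at 2.55 was wider. App, the amyloid precursor, ranged from 0.79 to 2.56, and its relatives Aplp1 and Aplp2 had medians of 4.69 and 1.77. Bace2 ranged from -0.65 to 0.87 and was above 0 on 8 arrays.

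Among 7 genes reported to work with SEZ6 proteins, 3 lay above 0 on all arrays (31.3% of all genes did), 1 below (33.9%), and the others crossed 0 or lacked a value on an array. Gria1, an AMPA receptor subunit, ranged from 4.80 to 6.52. Grik2, a kainate receptor subunit, ranged from 3.30 to 4.16, but was detected in Cy-3 on 2 arrays. Grik3, a second kainate subunit, lay near 0, from -0.28 to 0.63, and was detected in Cy-5 on 5 arrays. Prss12, which encodes the protease neurotrypsin, also called motopsin, had a value on 9 arrays, from 3.92 to 5.92, the widest range of the list, but without C10-434 its range was 0.89 and those of Gria1 (1.69), Add1 (1.60), Ctsd (1.06) and Prkca (1.14) were wider, as was that of Grik3 (0.91). Add1, the cytoskeletal protein adducin 1, had a median of 1.06, Ctsd (cathepsin D) one of -0.34 and Prkca (protein kinase C alpha) one of -1.09.

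The 11 genes of complement and its regulators divided in sign. Of all genes, 31.3% lay above 0 on all arrays and 33.9% below. C1qa, C1qb and C1qc, the chains of C1q made by microglia, had medians of 4.00, 3.45 and 3.82 and were above 0 on all arrays, as were C4b (2.24) and Itgam (2.24), a subunit of complement receptor 3. C3, the central complement protein, was lowest at -5.41, and the regulator Cr1l had a median of -1.95, both below 0 on all arrays. Cd46 had the widest range, from -1.92 to 0.34, but was detected in Cy-5 on 0 arrays. Cd55 and Cd59a, further regulators, lay around 0, with medians of -0.068 and 0.12.

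**Figure D5:**
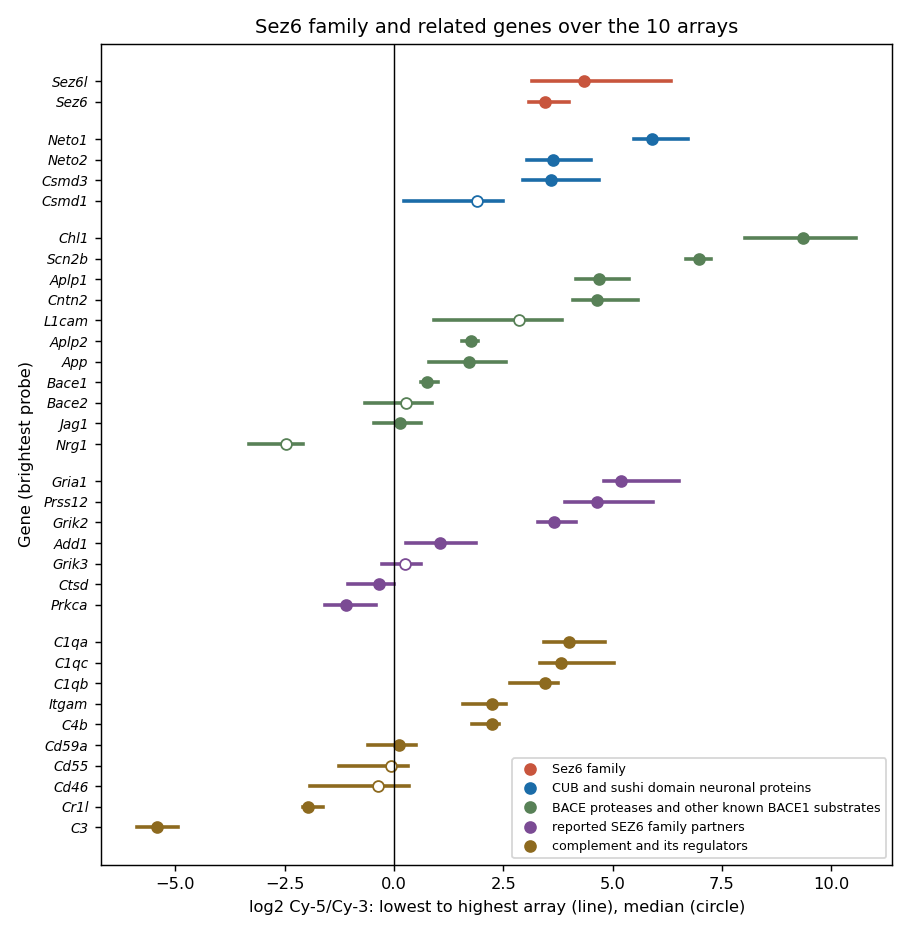
Log2 Cy-5/Cy-3 (horizontal axis) of the Sez6 family and of 4 lists of related genes (vertical axis), as the lowest to highest array (line) and the median (circle) of the brightest probe over the 10 arrays, with 1 complement gene not drawn and open circles where the gene was not detected in Cy-5 on every array. Sez6 and Sez6l lie to the right of 0 with Neto1, Neto2 and Csmd3, whereas C3 at -5.41 and Nrg1 at -2.48 lie to the left.

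None of the tested genes in these 4 lists passed the slide comparison, 0 of 4, 0 of 11, 0 of 6 and 0 of 11 by limma, where 0.0744% of all probes did. An unadjusted p under 0.05 by limma was found for 4034 of all 40299 probes. There was 1 such gene in the CUB and sushi list, 1 in the BACE list, 0 among the partners and 1 in the complement list. These were Csmd3 (second minus first slide -0.75, SE 0.26), Chl1 (-1.12, SE 0.38) and Cd46 (1.28, SE 0.38), with adjusted p of 0.343, 0.332 and 0.260 from limma. Cd46 was detected in Cy-5 on 0 arrays and Chl1 in Cy-3 on 5, so both differences include undetected signals. The slide difference of Bace1 was 0.096 (SE 0.15).

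The genes most like each member were taken by Pearson correlation of log2 Cy-5/Cy-3 over the 10 arrays, among 11293 genes whose brightest probe passed detection in Cy-5 throughout. For Sez6 they were Ctdsp2 (0.95), Plekhh3 (0.95), Fam174b (0.94), Sv2a (0.94), which encodes a synaptic vesicle protein, and Tmem145 (0.92). Among the 5 genes found without C10-434, 1 was shared with these, Sv2a. For Sez6l, by A_51_P201747, they included 1500009C09Rik (0.93), Ddn (0.92), which encodes the dendritic protein dendrin, Eftud2 (0.92) and Idh2 (0.91). Without C10-434, 4 of the first 5 stayed among the first 5, but by Spearman correlation 0 did. Likeness was of pattern and not of level, as Ctdsp2 itself had ratios of -0.83 to -0.35. The 10 arrays share dyes and slides, and the names describe these arrays alone.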

How the data were processed

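RNA of 10 hemibrains was measured on Agilent 4x44k arrays. Per the file headers, the authors' Feature Extraction software (version 10.10.1.1) gave background-subtracted, dye-normalized intensities, flags and a log10 ratio with its error score. The authors' deposited table held log2 ratios that matched log2 Cy-5/Cy-3 of the processed signals within 0.01 for 100% of probes on every array, with column medians between -0.054 and 0.099, so that ratio was used as it was. Control and outlier-flagged spots were left out and spots of a probe averaged. Probes were named through RefSeq accessions (GRCm38.p6, names only; the array design uses mm9). The processed signals of each dye were also set against the 75th percentile of the array.

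The slides were compared with limma 3.58.1 in R 4.3.3, with Benjamini-Hochberg adjustment. In simulated data of 40299 probes, 45.0% of 200 probes changed by 1.5 on the log2 scale were recovered and 5 unchanged probes were called. Other steps used Python 3.11.15 and pandas 2.3.3. The number of arrays limits the precision. Members and lists were chosen with earlier results of these data known. The text names every member probe and the highest, lowest and widest gene of each related list, with Bace1, the Csmd and Neto genes and the partners; App, Aplp1, Aplp2, Bace2, C1qb, C1qc, C4b, Itgam, Cr1l, Cd55 and Cd59a fall outside this rule, being added once their values had been seen. Alternatives were loess (span 0.3), median centring, normexp on median signals and subtraction with a floor of 0.5 (both offset 50), the deposited table, probe filters, all probes of a gene and leaving out arrays. Some genes that this rule or the lists cover are not reported here.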

Additional observations from a re-analysis of the deposited data

How the results depend on the processing

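The direction of Sez6 and Sez6l, higher in Cy-5 on all 10 arrays by each of the 3 probes, was the same under the 6 processings run. With normexp, however, C10-413 lay close to 0, at 0.055 for A_52_P427377 and 0.21 for A_51_P201747. The software errors of the deposited ratios on that array were 0.33 and 0.58. With normexp the median of Sez6 was 3.05 and its range 3.02, with C10-413 at 0.71. The median of Sez6l by A_51_P201747 was then 1.97 and its range 3.04, with C10-413 lowest and C10-416 highest. After subtraction with a floor the median of that probe was 2.43, with C10-434 lowest (1.42) and C10-413 highest (4.18). When both probes were averaged the median of Sez6l was 3.36, with a range of 1.95. The cause was not tested for normexp, and averaging includes the less variable probe by construction. Without C10-416, an alternative chosen after seeing the data, the Sez6l range was 2.50.

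The count of probes that differed between the slides was 0 with normexp (1116 at an unadjusted p under 0.05 by limma), 1 after subtraction with a floor and 68 among probes well above background in Cy-5. Leaving out 1 array gave 0 to 18 probes, with 0 for 6 of the 8 arrays, all but C10-415 (2) and C10-423 (18). The slide difference of Sez6 passed in none of the alternatives run, and ran from -0.47 to -0.18 when 1 array was left out, with adjusted p from 0.379 to 1.00 by limma. No paired analysis was possible because the labels give no replicate numbers shared between groups. Signal over background limits the Sez6l ratio of A_51_P201747, which rests on Cy-3 signals not well above background on 3 arrays.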
